A study of Mus musculus with 2 samples.

Results

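Alveolar type 2 (AT2) cells that carried Ndnf, Areg or Krt19 transcripts beside their surfactant genes were examined in a single-cell RNA data set of the mouse lung. They were chosen from kept barcodes (500 genes or more, and no more than 15% of UMIs, the counted molecules, from mitochondrial genes). A cell had to show at least 5 of 8 AT2 genes (Lamp3, Slc34a2, Abca3, Etv5, Lpcat1, Hc, S100g and Napsa) and at most 1 of 7 genes of other cells (Cdh5, Cldn5, Col1a2, Dcn, Ptprc, Ccdc153 and Msln). It also had to show at least 3 of Ager, Sprr1a, Ndnf, Areg and Krt19. This selected 1527 of 19951 kept cells, or of 9938 AT2 cells: 690 of 4002 in the wild-type library and 837 of 5936 in the other. The remaining 8411 are called other AT2 cells below.

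The lungs came from C57B6/J (WT) mice and from mice labelled Plaur–/–, which should lack Plaur, which encodes uPAR, the receptor of urokinase. All had been sensitised with lipopolysaccharide and ovalbumin (LPS/OVA) on days 0 and 7 and then challenged with ovalbumin aerosol on day 14, so no unchallenged lung is among the groups. The design names 8 mice per genotype, and the number of mice in each library is not given in the sources used here. After digestion, CD45.2-negative cells were sorted, a gate that removes most white blood cells. About 16000 live cells were loaded, although the labels call the material total lung cell lysate. There was 1 library per genotype, so no difference below has a replicate check and no p-value or standard error is given. All intervals are exact 95% intervals that cover counting error only.

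AT2 cells are the cuboidal cells that make surfactant, and they are also the progenitors of alveolar type 1 (AT1) cells, the thin cells across which gas is exchanged. After injury, AT2 cells on their way to AT1 cells pass through a transitional state known for keratins such as Krt8 and Krt19, for Cldn4, Sfn and Lgals3, and for p53, TGF-beta and YAP target genes. Of the genes used for the choice, Ager encodes the receptor for advanced glycation end products and is the classic AT1 marker, and Ndnf encodes a secreted protein. Areg encodes amphiregulin, a ligand of the EGF receptor, Krt19 a keratin of simple epithelia, and Sprr1a a small proline-rich protein of squamous and stressed epithelia.

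The regulatory starts of 3 genes the results turn on are shown because each holds a motif of factors that act downstream of growth and stress signals. Sprr1a and Areg belong to the rule, and F3 (tissue factor, the trigger of blood clotting) was among the 12 genes that stood highest in the selected cells. Each line gives the 250 bases before the start site from RefSeq (GRCm38.p6), read 5′ to 3′ on the gene's own strand. Capitals mark the AP-1 motif TGANTCA, or in Areg the cAMP response element TGACGTCA.
Sprr1a: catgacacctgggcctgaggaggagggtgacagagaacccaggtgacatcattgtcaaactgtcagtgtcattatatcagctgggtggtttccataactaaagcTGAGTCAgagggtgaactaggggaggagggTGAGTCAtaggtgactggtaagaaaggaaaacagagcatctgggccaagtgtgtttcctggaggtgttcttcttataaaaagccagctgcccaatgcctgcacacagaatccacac
Areg: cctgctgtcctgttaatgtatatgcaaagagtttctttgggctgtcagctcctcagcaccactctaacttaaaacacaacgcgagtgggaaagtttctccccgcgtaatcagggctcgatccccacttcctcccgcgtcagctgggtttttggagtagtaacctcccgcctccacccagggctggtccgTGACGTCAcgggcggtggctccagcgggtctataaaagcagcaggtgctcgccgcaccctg
F3: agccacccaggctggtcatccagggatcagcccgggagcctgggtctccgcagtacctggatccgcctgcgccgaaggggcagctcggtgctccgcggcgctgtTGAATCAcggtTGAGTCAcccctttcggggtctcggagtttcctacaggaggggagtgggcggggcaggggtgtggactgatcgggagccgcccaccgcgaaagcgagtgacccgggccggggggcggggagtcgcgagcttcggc

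The Sprr1a stretch lies at chr3:92485882-92486131 on the minus strand, that of Areg at chr5:91139349-91139598 and that of F3 at chr3:121723287-121723536, both on the plus strand. The AP-1 motif occurred at bases -146 to -140 and -116 to -110 from the start of Sprr1a and at -146 to -140 and -135 to -129 of F3, and the Areg match lay at -61 to -54. Over all RefSeq promoters of 300 bases, which run 50 bases past the start, 7.81% of 32851 held TGANTCA on either strand and 1.79% held TGACGTCA, counted apart since the motifs do not overlap. Counted per gene, 8.97% of 27025 genes held TGANTCA in at least 1 promoter. Among the 12 genes highest in the selected cells, 10 had a promoter in the table, and F3, Kcnk2 and Plb1 held TGANTCA. Kcnk2 had 4 promoters and Plb1 had 2, which leaves more room for a match. Of the 12 lowest, 9 had a promoter and 0 held it. Of the genes of the transitional list introduced below, 3 of 19 held it (Anxa2, Cldn4 and Myl12a). Of the AT1 list, also introduced below, 1 of 17 held it (Igfbp2). The promoter of Ager held neither motif, and Ndnf and Krt19 had no promoter in the table. A match is a description of letters and shows no binding.

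Ager hardly separated the selected cells from the rest, while Ndnf, Areg, Krt19 and Sprr1a did, as the choice fixed. Ager (chr17:34597862-34600936, GRCm38) was detected in 98.8% of selected cells and 96.1% of other AT2 cells in the WT library, and in 99.8% and 97.1% in the library labelled Plaur–/– (the KO-labelled library). The requirement of 3 genes was therefore in nearly every cell a requirement of 2 among the remaining 4. Ndnf (chr6:65671590-65712326) was detected in 77.7% of selected and 14.9% of other AT2 cells in the WT library, and in 85.4% and 15.6% in the KO-labelled library. Areg (chr5:91139599-91148432) was found in 81.9% against 15.8%, and in 78.5% against 14.4%. Krt19 (chr11:100140810-100148665) was found in 62.3% against 8.21%, and in 55.7% against 5.73%. Sprr1a (chr3:92483952-92485895) was the rarest, in 9.57% of selected cells of the WT library and 10.4% of the KO-labelled library, and in 0.181% and 0.373% of other AT2 cells. These are thin counts per cell: the median selected cell held 1 UMI of Ndnf and 1 of Krt19 in either library, and 2 of Areg in the WT and 1 in the KO-labelled library.

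**Figure D1:**
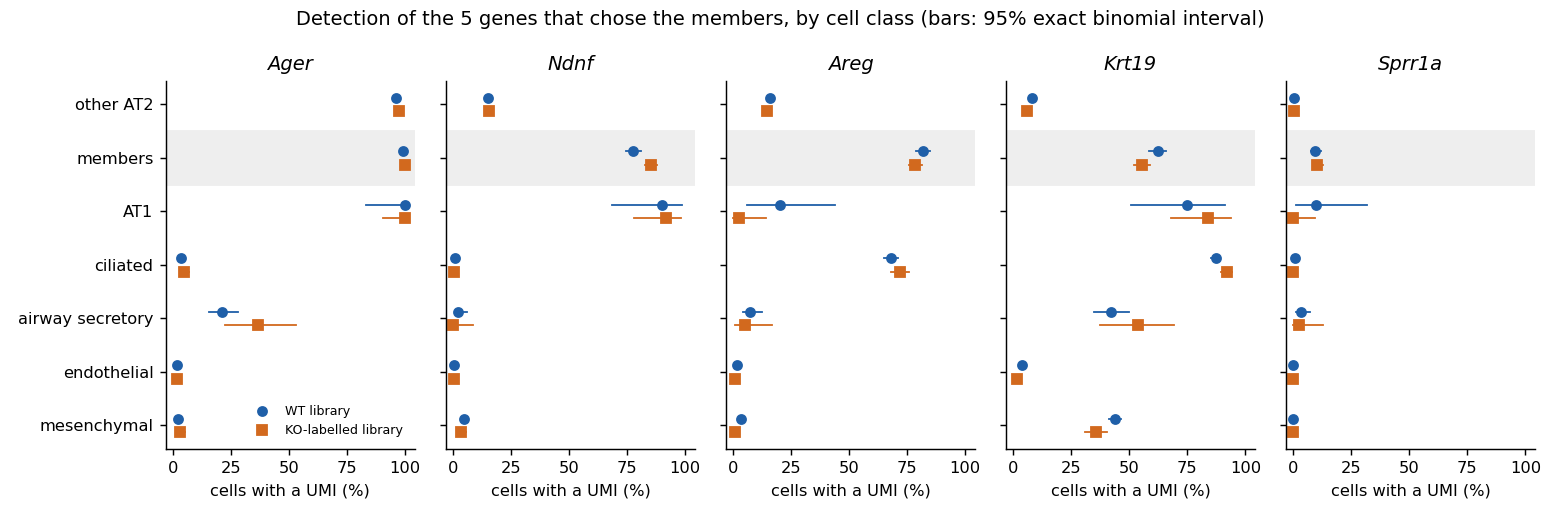
Share of cells (percent, x axis) with at least 1 UMI of each of the 5 rule genes in other AT2 cells, selected cells (drawn as members), AT1 cells and 4 other cell types (y axis), for each library. Bars are exact 95% intervals. Ager is near 100% in both kinds of AT2 cell. Ndnf, Areg and Krt19 are found in a larger share of selected than of other AT2 cells, as the choice fixed. They are not particular to selected cells: most AT1 cells have Ndnf and Krt19, and most ciliated cells have Areg and Krt19.

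Endothelial cells, which should lack these genes, give a background share at a shallower depth. With a median of 1526 UMIs in the WT and 1466 in the KO-labelled library, they had Ager in 1.77% and 1.47% of cells and Ndnf in 0.313% and 0.245%. Mesenchymal cells, at medians of 4863.5 and 4710.0 UMIs, had Ndnf in 4.67% and 3.401%. Selected cells were deeper, with medians of 7000.5 and 6621 UMIs. Ager was thus in AT2 cells well above the share in endothelial cells, and at 818 CPM (the usual scale of UMIs relative to the cell set's total) in other AT2 cells of the WT library against 12800 CPM in AT1 cells. Areg and Krt19 were not particular to alveolar cells: ciliated cells had Areg in 68.1% and 72.0% and Krt19 in 87.3% and 91.9% of cells. AT1 cells, 20 in the WT and 37 in the KO-labelled library, had Areg in 4 and 1 of those cells.

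The choice took 17.2% (16.1 to 18.4) of the AT2 cells labelled WT and 14.1% (13.2 to 15.01) of those labelled KO. With every cell thinned to 3000 UMIs before the choice, which left out 88 and 178 shallower AT2 cells, the shares were 7.94% (7.11 to 8.83) and 6.497% (5.87 to 7.17). Of the cells selected at full depth, 42.9% and 44.3% were selected again after thinning. Most cells were thus selected at full depth only. Median UMIs were 7000.5 in selected and 6405 in other AT2 cells of the WT library, and 6621 and 6160 in that labelled KO. Of the deposited barcodes, 30 occurred in both libraries, and 1 selected cell of the KO-labelled library carried a barcode that also occurred in the WT library.

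Cells just inside the threshold, with exactly 3 of the 5 genes, numbered 505 in the WT and 624 in the KO-labelled library, and cells just outside, with 2, numbered 1239 and 1784. Between these neighbours Ndnf went from 77.2 to 179.7 CPM in the WT library and from 98.2 to 213 CPM in the KO-labelled library. Areg went from 142 to 325 CPM and from 127 to 317 CPM. The commonest combination was Ager with Ndnf and Areg, in 239 (34.6%) and 331 (39.5%) of the selected cells. All 5 genes were found in 24 and 36 cells.

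The 4 rarer genes tended to occur in the same AT2 cells. This was read in all 3914 AT2 cells of the WT library and 5758 of the KO-labelled library that had at least 3000 UMIs, each thinned to that number. Areg was found in 32.8% of Ndnf-positive and 15.8% of Ndnf-negative cells of the WT library, and in 27.7% and 13.2% of those of the KO-labelled library. Krt19 was found in 17.3% against 8.69%, and in 17.0% against 5.504%. Ager differed from these: Ndnf was in 15.8% of Ager-positive and 12.5% of Ager-negative cells of the WT library, and in 15.8% and 11.9% in the KO-labelled library. The steepest contrast was with Sprr1a: 72.7% of the 44 Sprr1a-positive cells of the WT library also had Lgals3, against 19.7% of the Sprr1a-negative cells, and in the KO-labelled library 74.0% of 73 cells had it, against 15.6%. Krt8 was in 90.9% against 43.5%, and in 75.3% against 40.6%. Neither Lgals3 nor Krt8 was used in the choice.

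Some selected barcodes also carried genes of ciliated cells, and this bears on every gene count below. At least 2 of the 5 ciliated markers Ccdc153, Foxj1, Tmem212, Dynlrb2 and Rsph1 were found in 49 of 690 selected cells (7.101%) and 42 of 3312 other AT2 cells (1.27%) of the WT library, and in 27 of 837 (3.23%) and 33 of 5099 (0.647%) of the KO-labelled library. Their summed level was 356 CPM in selected and 62.2 CPM in other AT2 cells of the WT library, and 176 and 38.6 CPM in the KO-labelled library. Scrublet, a doublet caller, marked 38 of the 49 and 11 of the 27. At least 5 of 9 AT1 markers (the preset 10 without Ager) were found in 9 and 21 selected cells. The 9 (Hopx, Rtkn2, Akap5, Clic5, Pdpn, Aqp5, Spock2, Col4a3 and Igfbp2) all belong to the AT1 list below. Lower values of that list without the AT1-marker barcodes were therefore partly fixed by how these were picked. The main counts, lists and genes are given with and without the ciliated-marker and AT1-marker barcodes. These exclusions were chosen after the data were seen.

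Over all genes, 592 of 12056 (4.91%) stood at a log2 ratio of 1 or more over other AT2 cells in both libraries, and 23 (0.191%) at -1 or less. These shares are the background for the counts within gene lists, which leave out the genes of the rule. Of the 592 genes, 504 were over 10 times higher in ciliated than in other AT2 cells of both libraries, a property of 815 of the 12056 genes. Without the ciliated-marker barcodes, 116 of 11465 genes stood higher and 32 lower, and 102 of the 116 were among the 592. Of the 116, 23 were still over 10 times higher in ciliated than in other AT2 cells of both libraries. The median log2 ratio of all genes was 0.11 in the WT and 0.10 in the KO-labelled library.

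Genes of the transitional state stood together above other AT2 cells. Of 24 listed genes 23 had at least 20 UMIs. Of these, 11 passed the log2 ratio of 1 in both libraries and 23 were above 0 in both. Under TMM scaling Nupr1 was at -0.06 in the KO-labelled library, and it was also below 0 against AT2 cells with 0 rule genes, at -0.15 and -0.30. Fn1 fell below 0 with 4 of the 5 genes required (-0.41, WT) and after thinning (-0.79, KO-labelled). The medians were 1.04 in the WT and 1.13 in the KO-labelled library. Without the ciliated-marker barcodes 10 passed, 22 were above 0 in both, and the medians were 0.89 and 1.12. Krt8 and Krt18 (a keratin pair of simple epithelia), Lgals3 (galectin 3), S100a6 (a small calcium-binding protein), Sfn (the 14-3-3 sigma protein, induced by p53) and Anxa1 (annexin A1) were among those that passed.

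Krt8 (chr15:101996698-102004482) stood at 501 CPM in selected and 200.2 CPM in other AT2 cells of the WT library, and at 500.2 and 183 CPM in the KO-labelled library. Its log2 ratios were 1.32 (1.25 to 1.39) and 1.45 (1.39 to 1.52). Lgals3 (chr14:47367751-47386160) stood at 335 against 67.3 CPM and at 281 against 51.6 CPM. The 2 libraries thus gave like ratios for Lgals3, 2.32 (2.22 to 2.42) and 2.44 (2.35 to 2.54). S100a6 had the largest ratio of the list, at 373 against 50.2 CPM (log2 2.89, 2.79 to 3.001) and 311 against 25.2 CPM (log2 3.63, 3.51 to 3.75). Without the barcodes of both kinds the ratios were 1.31 and 1.47 for Krt8, 2.30 and 2.44 for Lgals3, and 2.88 and 3.64 for S100a6. In AT1 cells S100a6 reached 3953 and 4170 CPM, far above the selected cells. Krt18 had log2 ratios of 1.04 and 1.13, Krt7 of 1.24 and 1.505, Sfn of 1.25 and 1.59 and Anxa1 of 1.13 and 1.33. Itgb6, the subunit of the integrin that activates TGF-beta, had log2 ratios of 1.07 (0.85 to 1.29) and 1.79 (1.57 to 2.003).

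Other genes of the transitional list were scarce, passed in 1 library or rested on few cells. Cldn4, a tight junction claudin and the classic marker of the state, was scarce, with 72 UMIs (13.4 CPM) in selected cells of the WT library and 44 (7.22 CPM) in the KO-labelled library, at log2 ratios of 1.91 (1.43 to 2.39) and 1.68 (1.11 to 2.24). Clu (clusterin) was at 0.81 and 1.03, and Anxa2 (annexin A2) at 0.86 and 1.06, so each passed in the KO-labelled library only. Hbegf, another EGF receptor ligand, was at 1.09 and 0.79. Tm4sf1, a tetraspanin-like membrane protein, was at 2.29 and 2.68 with all barcodes, and at -0.26 and 1.72 without those that carried ciliated markers. Fn1 (fibronectin) had 48 and 21 UMIs, of which 3 cells in each library held 32 and 15.

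**Figure D2:**
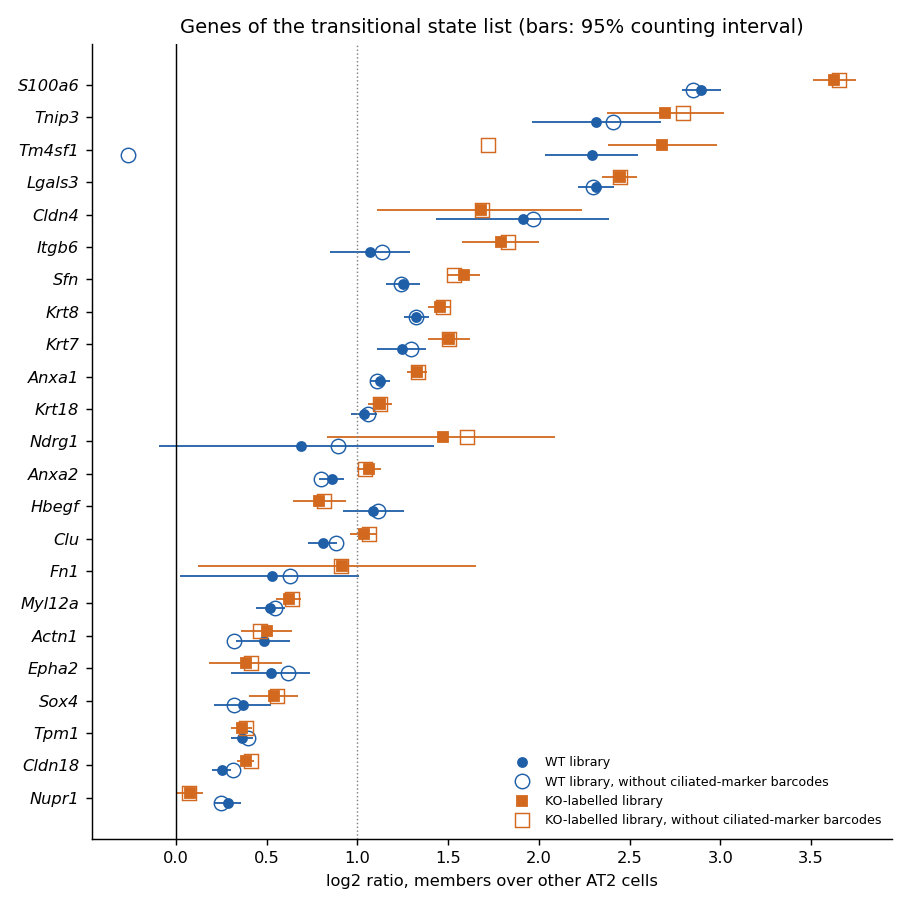
Log2 ratio of selected over other AT2 cells (x axis) for each measured gene of the transitional list, with exact 95% intervals, for the WT and the KO-labelled library. Filled points with bars show all barcodes, and open points those left without the ciliated-marker barcodes. The filled points of all 23 genes lie above 0 in both libraries (Nupr1 not under TMM scaling), with S100a6 highest. The open point of Tm4sf1 in the WT library lies below 0.

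AT1 genes stood higher in the selected cells than in other AT2 cells by small amounts, and far below AT1 cells. All 20 listed genes were measured, 5 passed the log2 ratio of 1 in both libraries (Hopx, Akap5, Clic5, Igfbp2 and Sema3a) and 19 were above 0 in both, with medians of 0.70 and 0.85. Under TMM scaling, which rests on the bulk of genes and not on totals, Vegfa and Limch1 were below 0 in the WT library, at -0.11 and -0.15. Without the ciliated-marker barcodes 4 passed (medians 0.67 and 0.89). With the AT1-marker barcodes left out too, 1 of 18 measured genes passed and the medians were 0.59 and 0.66. Summed over the list, the selected cells had 1846 CPM against 1290.5 CPM in other AT2 cells and 29195 CPM in AT1 cells of the WT library. The same sums were 2144 against 1326 and 46147 CPM in the KO-labelled library. The markers Ager, Ndnf, Areg and Sprr1a were used in the choice and cannot bear on the name "transitional towards AT1". The AT1 list also stayed far below its level in AT1 cells. The selected cells are therefore called Ndnf, Areg or Krt19 bearing AT2 cells here. Not every cell had each of these genes. Krt19 was detected in 62.3% of selected cells of the WT library and in 55.7% of those of the KO-labelled library.

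Aqp5, a water channel of AT1 cells and a marker named for this state that the choice did not use, was at 248 CPM in selected and 184 CPM in other AT2 cells of the WT library (log2 0.43, 0.34 to 0.52). In the KO-labelled library it was at 305 and 173 CPM (log2 0.82, 0.74 to 0.90), and AT1 cells had 2342 and 3520 CPM. Hopx, a homeodomain protein of AT1 cells, was at 36.9 against 15.5 CPM and at 58.7 against 15.7 CPM, with AT1 cells at 3446 and 6442 CPM. Its log2 ratios were 1.25 (0.99 to 1.51) and 1.91 (1.71 to 2.10). They were 0.69 and 1.84 without the ciliated-marker barcodes, and 0.54 and 0.71 without the AT1-marker barcodes as well. In the KO-labelled library few cells carried much of the Hopx signal, as 3 cells held 152 of its 358 UMIs, and in ciliated cells it was found in 70.3% and 71.7%. Clic5, a chloride channel relative, was steadier at 1.02 and 1.03 with all barcodes, and at 1.03 and 0.83 without both sets. Rtkn2, an AT1 marker of unsettled function, had 12 and 48 UMIs, with ratios of 0.89 (-0.22 to 1.92) and 1.69 (1.15 to 2.23), and of 0.97 and -0.05 without both sets. Vegfa, the endothelial growth factor that AT1 cells make, was at 0.04 (-0.11 to 0.19) and 0.28 (0.14 to 0.40). Scnn1b, a subunit of the epithelial sodium channel, was the gene not above 0, at -0.15 and -0.08.

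**Figure D3:**
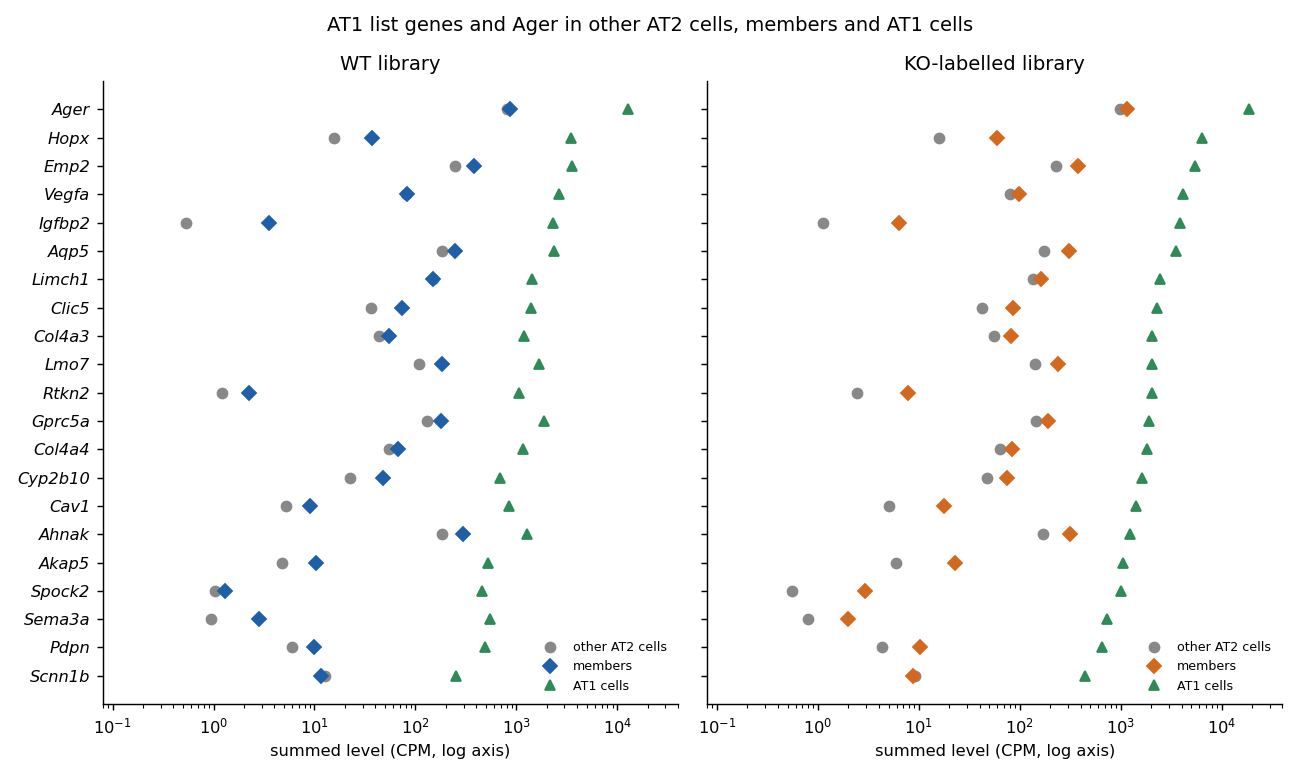
Levels (CPM, log x axis) of Ager and the AT1 list genes (y axis) in other AT2 cells, selected cells (members) and AT1 cells of each library. In every gene drawn the selected cells lie closer to other AT2 cells than to AT1 cells, and Aqp5 stood at 248 and 305 CPM in selected and at 2342 and 3520 CPM in AT1 cells.

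Surfactant and other AT2 genes outside the rule were kept at a slightly lower level. Of 21 genes, 0 passed the fold in either direction in both libraries, and 15 were below 0 in both. The medians were -0.41 in the WT and -0.17 in the KO-labelled library. Sftpc, the surfactant protein C gene, was at 133440 CPM against 149800 CPM in other AT2 cells of the WT library and at 158760 against 164430 CPM in the KO-labelled library. Lyz2 (lysozyme) had log2 ratios of -0.41 and -0.35. Fabp5, a fatty acid carrier of lipid synthesis in AT2 cells, was the lowest in the WT library, at 527 against 1068 CPM (log2 -1.02, -1.08 to -0.96) and at 669.8 against 1240.3 CPM (log2 -0.89, -0.94 to -0.84). Acoxl, an acyl-CoA oxidase relative, was at -0.95 and, lowest in the KO-labelled library, at -0.92. Ctsh, a cathepsin that processes surfactant proteins, went the other way at 0.54 and 0.64.

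In the signalling lists a few genes passed. Of 13 measured p53 targets 2 passed, Phlda3 (an inhibitor of AKT) at 1.21 and 1.35 and Gdf15 (a stress cytokine) at 1.13 and 1.27. The cell cycle inhibitor Cdkn1a stood at 1.08 and 0.93, and the list's medians were 0.34 and 0.20. Without the ciliated-marker barcodes 1 of 13 passed, Gdf15, with medians of 0.30 and 0.19. Of 11 measured YAP and TEAD targets 3 passed, F3 at 1.73 (1.44 to 2.02) and 1.70 (1.46 to 1.95), Nt5e (an ecto-nucleotidase) at 2.78 and 2.57, and Ajuba (a LIM protein of the Hippo pathway) at 1.32 and 1.83, with medians of 0.54 and 0.53. F3 was at 33.2 against 9.99 CPM in the WT and at 36.6 against 11.2 CPM in the KO-labelled library, while Nt5e rested on 33 and 22 UMIs. Without the ciliated-marker barcodes 3 of 11 passed (medians 0.57 and 0.58), and with the AT1-marker barcodes left out too 2 of 10 (0.30 and 0.35). Of 13 EGF family and feedback genes the neuregulin gene Nrg1 passed (1.89 and 1.36, from 46 and 32 UMIs), and of 11 TGF-beta genes Itgb6, already given, passed. The respective medians were 0.15 and 0.23, and 0.31 and 0.19. Without the ciliated-marker barcodes 0 of 13 EGF family genes passed, with Nrg1 at 1.56 and 0.99 from 14 and 20 UMIs.

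The other stress and inflammation lists showed little. None of 18 AP-1 and immediate-early genes passed in both libraries (medians 0.15 and 0.06), nor any of 10 integrated stress genes (0.26 and 0.22) or of 12 NF-kB targets (-0.18 and -0.08). Of 6 measured IL-4 and IL-13 response genes, Arg1 (arginase 1) was lower in both libraries, from 13 and 7 UMIs. Retnla, an alveolar and macrophage product of type 2 immunity, was at 1229.8 against 2013 CPM in the WT library and at 2811 against 4169 CPM in the KO-labelled library (log2 -0.71 and -0.57). Of 11 squamous and basal genes 1 was measured. Summed over that list, selected cells with Sprr1a had 19.05 CPM and those without it 6.61 CPM in the WT library, and 20.6 and 9.34 CPM in the KO-labelled library. The cells with Sprr1a held 524957 and 632527 UMIs of all genes, so these sums rest on few UMIs. Selected cells with Ndnf, Areg and Krt19 but no Sprr1a had 3.37 CPM in the WT library. In the KO-labelled library they had 26.6 CPM, more than the cells with Sprr1a. The 12 measured cell cycle genes had medians of 1.36 in the WT and 0.01 in the KO-labelled library. The WT value rested on few cells, since 10 of its 690 selected cells held 78 of the 82 Top2a UMIs.

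Over all genes, the 12 highest that met the rule for naming were Lgals3, Tnip3, F3, Plb1, S100a14, Thbs1, Mboat1, Lhfp, Kcnk2, Rhobtb1, Tnfrsf12a and Ano1. Thbs1, the matrix protein thrombospondin 1 that activates latent TGF-beta, was the most abundant beside Lgals3. It stood at 143 against 43.1 CPM in the WT library (log2 1.73, 1.59 to 1.87) and at 158 against 40.2 CPM in the KO-labelled library (log2 1.98, 1.86 to 2.10). Without the ciliated-marker and AT1-marker barcodes Thbs1 had ratios of 1.75 and 2.02, and F3 of 1.43 and 1.67. Kcnk2, a potassium channel opened by stretch, was at 76.4 against 25.9 CPM and at 67.3 against 16.3 CPM. Tnip3, a binding partner of the NF-kB regulator A20, was at 27.8 against 5.58 CPM and at 29.4 against 4.54 CPM. Tnfrsf12a, the receptor of the cytokine TWEAK, had log2 ratios of 1.45 and 1.44, and Ano1, a calcium-activated chloride channel, of 1.38 and 1.41. Against AT2 cells with 0 rule genes Mboat1 was at 0.17 and 0.56, and Rhobtb1 at 0.72 in the KO-labelled library.

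The 12 lowest genes were Fgg, Ros1, Klk14, Mfsd2a, Cxcl5, Aass, Gjb2, Trf, Lrg1, Lipg, Smbd1 and Cxcl3. Cxcl5, a neutrophil chemokine of AT2 cells, stood at 226 against 497 CPM in the WT library (log2 -1.14, -1.22 to -1.05) and at 244 against 604 CPM in the KO-labelled library (log2 -1.31, -1.38 to -1.23). Cxcl3, a related chemokine, was at -0.97 and -1.16. Lrg1, a secreted glycoprotein of the acute phase, was at 316 against 692 CPM and at 302 against 619 CPM. Trf, the iron carrier transferrin, was at 68.0 against 162 CPM and at 76.0 against 156 CPM. Mfsd2a, the carrier of lysophosphatidylcholine that serves surfactant lipid synthesis, was at -1.14 (-1.58 to -0.72) and -1.15 (-1.49 to -0.82). In AT1 cells Trf, Mfsd2a, Fgg and Ros1 had 0 UMIs. The AT1 cells held only 67032 and 155395 UMIs of all genes, so 0 says little for a scarce gene.

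The transitional list, which the choice did not use, went up at each step from 1 to 5 rule genes found in a cell. Over AT2 cells with 1, 2, 3, 4 and 5 rule genes, the transitional list summed in WT to 3031, 3606, 5117, 7046 and 14602 CPM, and with the KO label to 2662, 3219, 4634, 7672 and 11651 CPM. Lgals3 went from 48.9 CPM with 1 gene to 209 with 3, and reached 1786 CPM in the 24 WT cells with 5. In the KO-labelled library it went from 40.0 to 177 and to 1116 CPM in 36 cells. Cells with 0 rule genes, 76 and 91 in number, had 2769.6 and 2814 CPM of the list, so in the KO-labelled library that value lay above the one at 1 gene. Not every gene or list went up: from 4 to 5 genes Hopx went from 47.4 to 18.6 CPM and Aqp5 from 289 to 232 CPM in the WT library, and the AP-1 list from 5411 to 4718 CPM. The AT1 list went over the same steps from 1228 to 2667 CPM in the WT and from 1242 to 2750 CPM in the KO-labelled library. AT2 genes outside the rule went from 239280 to 173010 CPM in the WT library. In the KO-labelled library they went from 254260 CPM to 226460 CPM at 4 genes and 236600 CPM at 5. Median UMIs went up too, from 6276 to 7955.5 in the WT and from 6093.5 to 6980.5 in the KO-labelled library, and their part in the steps was not tested.

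**Figure D4:**
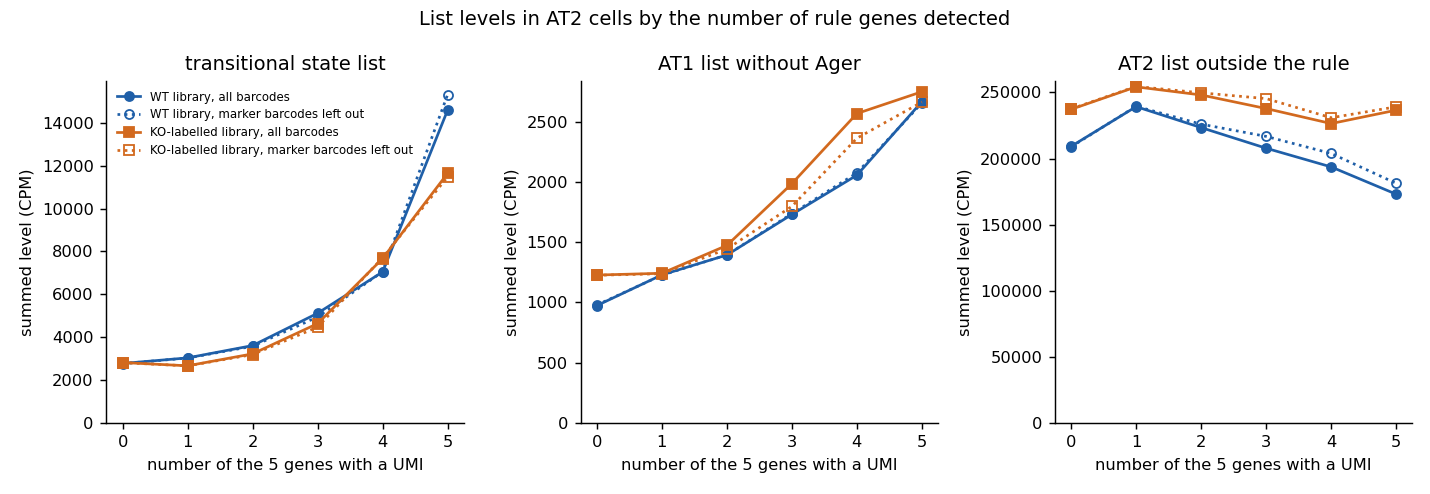
Summed CPM of the transitional, AT1 and AT2 lists (y axes) in AT2 cells by the number of the 5 rule genes detected (x axis), for each library. Filled points and solid lines show all barcodes, open points and dotted lines those left after taking out ciliated-marker and AT1-marker barcodes. The transitional list is higher at every step from 1 to 5 genes, up to 14602 CPM in the WT and 11651 CPM in the KO-labelled library.

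Selected cells with Sprr1a stood higher in the transitional list than those without it. Sprr1a is itself a rule gene, carried by every cell at the far end of this order, so its place there was fixed by the choice. The 66 and 87 selected cells with Sprr1a had 11262 and 9870 CPM of the transitional list, against 5385 and 5098 CPM in selected cells without it. Krt8 was at 1023 against 444.5 CPM in the WT library and at 942 against 449 CPM in the KO-labelled library. Lgals3 was at 1172 against 244 CPM and at 828 against 218 CPM. AT1 cells had Krt8 at 880.2 and 534 CPM (59 and 83 UMIs) and Lgals3 at 746 and 528 CPM (50 and 82 UMIs). By point value both genes were thus higher in the cells with Sprr1a than in AT1 cells. The AT1 counts are small, no interval was taken, and the values lay closest for Krt8 in the WT library. The AT1 list differed less, at 2421 against 1784 CPM and at 2428 against 2112 CPM. Median depths were close, at 7193.5 against 6980 UMIs and at 6699 against 6619.5.

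The combinations of rule genes were not alike in what else they carried. Selected cells with Ndnf and Areg but neither Krt19 nor Sprr1a (239 and 331) had Krt8 at 333 and 329.7 CPM and included 0 and 1 of the ciliated-marker barcodes. Those with Areg and Krt19 but neither Ndnf nor Sprr1a (136 and 113) had Krt8 at 468 and 482 CPM, but included 30 and 20 ciliated-marker barcodes, most of those in either library. Cells with Ndnf and Krt19 but neither Areg nor Sprr1a (102 and 155) had the highest Ager of these sets, 1016 and 1419 CPM. In the KO-labelled library that last set held 13 of the 21 AT1-marker barcodes.

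Plaur, the gene named by the genotype, was counted in both libraries, and in AT2 cells it was higher in the KO-labelled library. Among selected cells it had 32 UMIs (5.96 CPM) in the WT and 181 UMIs (29.7 CPM) in the KO-labelled library, a log2 ratio of 2.32 (1.77 to 2.91). In other AT2 cells the ratio was 2.52 (2.14 to 2.92). In AT2 cells the transcript level thus goes against the label. Other cell types differed in direction. Ciliated cells also had more Plaur with the KO label (22.7 CPM WT, 46.1 CPM KO label). So did AT1 cells (74.6 and 212 CPM, from 5 and 33 UMIs) and airway secretory cells (15.1 and 23.9 CPM, from 20 and 11 UMIs). Mesenchymal cells had less, with 110.7 CPM of Plaur with the WT and 69.5 CPM with the KO label. Immune cells (367 and 240.3 CPM), mesothelial cells (131 and 82.9 CPM) and endothelial cells (201 and 182 CPM) had less too by CPM. By the share of cells with a UMI, endothelial cells (23.7% and 24.2%) and immune cells (35.2% and 39.5%) did not have less. No interval was taken for the ratios of these other cell types, and the endothelial values lay close. A 3′ tag cannot show whether the message still encodes uPAR, and the deleted part of Plaur (chr7:24462484-24475968) is not given in the sources used here. Every direction between the libraries below rests on these labels. Within each library Plaur was higher in selected than in other AT2 cells, at log2 ratios of 1.11 (0.44 to 1.75) and 0.91 (0.66 to 1.15). Without ciliated-marker barcodes the values were 0.75 and 0.91.

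Between the libraries, 93 of 11925 genes (0.78%) were at a log2 ratio of 1 or more in the selected cells of the KO-labelled library over those of the WT library, and 646 (5.42%) at -1 or less. Of the 646, 333 were over 10 times higher in ciliated than in other AT2 cells. Without ciliated-marker barcodes 117 were higher and 321 lower of 11299 genes, of which 75 and 272 had been so with all barcodes. The median over all genes was -0.10. The transitional list had a median of -0.07 in selected cells (0.046 under TMM scaling) against -0.26 in other AT2 cells, and 1 of 23 genes passed, Fn1, which was lower. Krt8 was at -0.00 (-0.08 to 0.07), Lgals3 at -0.25 (-0.35 to -0.16) and S100a6 at -0.26 (-0.36 to -0.17).

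AT1 genes were somewhat higher in the selected cells of the KO-labelled library, with a median of 0.29 against 0.00 in other AT2 cells, and 3 of 20 passed (Rtkn2, Akap5 and Spock2). Hopx was at 0.67 (0.42 to 0.93) and Cav1 (caveolin 1) at 0.96 (0.46 to 1.48), against 0.02 and -0.02 in other AT2 cells. Without the ciliated-marker and AT1-marker barcodes the list's median was 0.02, Hopx was at 0.15 (-0.26 to 0.55) and Cav1 at 0.36 (-0.22 to 0.95). With the ciliated-marker barcodes alone left out 6 of 20 genes passed, and with both sets left out 1 of 18. The list's median was 0.26 with the ciliated-marker barcodes alone left out, so most of the move came with the AT1-marker barcodes. These numbered 9 in the WT and 21 in the KO-labelled library. They were picked by genes of this same list, so the fall is no independent check on it.

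Several genes with the largest library ratios had a like ratio in other AT2 cells, and others had a smaller one. Retnla stood 1.19 (1.15 to 1.23) higher in the KO-labelled library among selected cells and 1.05 among other AT2 cells, on the log2 scale. Cmss1, a nucleolar protein gene, was 1.13 and 1.20 higher, and Depp1, a stress-induced autophagy regulator, 1.09 and 1.05. Gdf15 was at -1.56 (-1.80 to -1.33) in selected and -1.70 in other AT2 cells, and Srxn1, an antioxidant sulfiredoxin, at -1.19 and -1.21. Alkal1, a ligand of the ALK and LTK receptors, was at -1.29 (-1.93 to -0.67) in selected and 0.05 (-0.15 to 0.25) in other AT2 cells, from 71 and 33 UMIs in the selected cells. Akap5, an AT1 list gene for an anchoring protein of signalling enzymes, was at 1.15 (0.69 to 1.63) and 0.31 (-0.04 to 0.66), Alms1, a centrosomal protein gene, at -1.06 and -0.18, and Zfp523, a zinc finger gene, at -1.02 and -0.27. Whether a ratio differs between the 2 kinds of AT2 cell was not tested, since each genotype has 1 library.

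**Figure D5:**
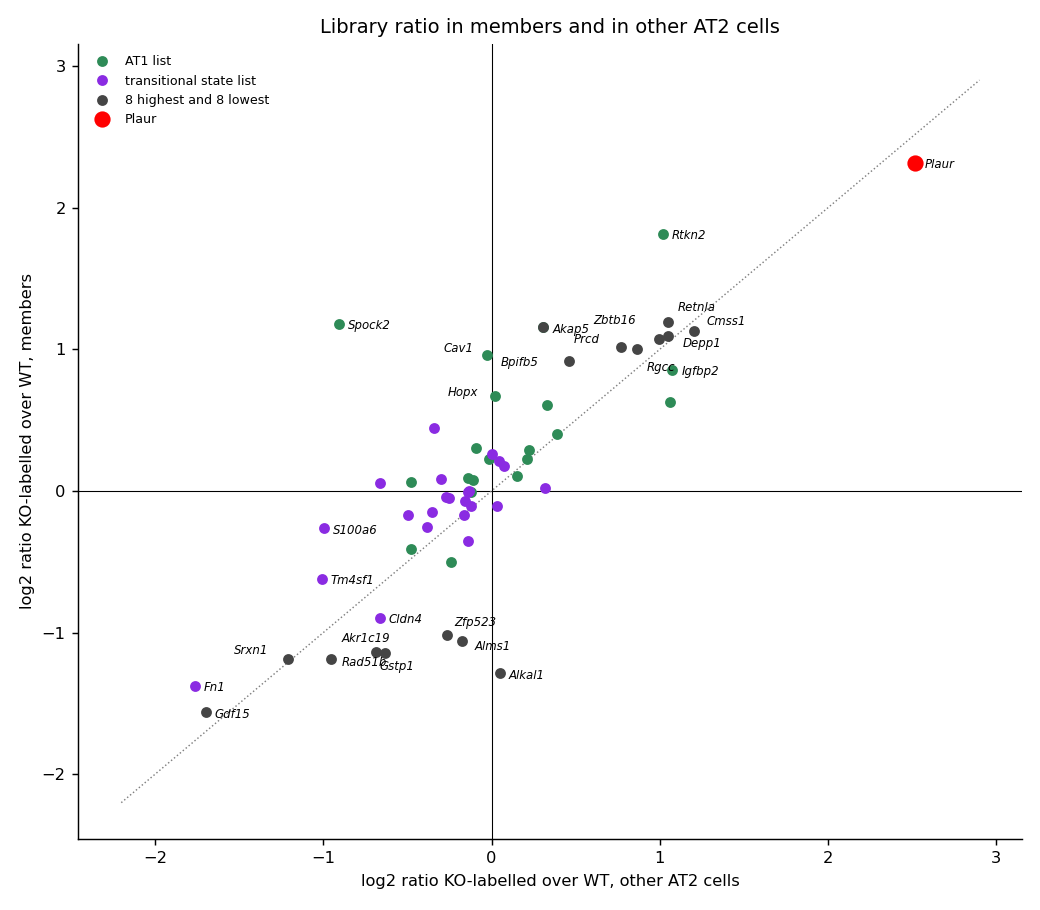
Log2 ratio of the KO-labelled over the WT library in selected cells (y axis) and in other AT2 cells (x axis) for genes of the AT1 and transitional lists, the 8 highest and 8 lowest genes and Plaur. The dotted line marks equal ratios; Retnla (1.19 and 1.05) and Gdf15 (-1.56 and -1.70) lie near it, while Alkal1, Cav1 and Hopx do not.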

How the data were processed

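The deposited matrices hold UMI counts per gene and barcode from droplet 3′ RNA sequencing, unnormalized, written by the authors with Cell Ranger (versions 7.0.0 and 7.1.0 and build mm10 per the submitters' processing notes; which step used which version is not given in the sources used here). The WT library had 11776 barcodes and 57028943 UMIs, the KO-labelled library 9771 and 51529241.

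Members, gene lists and the naming rule were chosen with earlier results of these data known. Cells were kept and selected as stated in the report, and doublets were not removed; Scrublet in scanpy 1.11.5 (expected share 8%) gave the marks. AT1 cells had at least 5 of 10 AT1 markers, at most 2 of the 8 AT2 genes and at most 1 gene of other cells. UMIs were summed per library and cell set and divided by the set's total. Ratios have exact conditional binomial 95% intervals and shares Clopper-Pearson intervals. A set without any UMI of a gene stood at a floor of 3, and smaller counts that were found were used as they were. Genes needed 20 UMIs. Named genes were the rule genes, markers and Plaur; measured genes of the AT1 and transitional lists; up to 4 highest and 2 lowest of each other list; the 12 highest and 12 lowest with 50 UMIs in the higher set of each library; and the 8 highest and 8 lowest between libraries with 100 UMIs. The last 2 steps left out genes over 10 times higher in other cell types. In a test on simulated counts (members against other AT2 cells, WT), 95.49% of 10369 genes had their true ratio inside the interval. The counts were drawn with Poisson counting error alone, which the interval assumes. The test thus checks the calculation and cannot speak for genes whose UMIs sat in few cells. Positions are from GENCODE vM21 (GRCm38). Alternatives covered the thinning, stricter rules, doublets, edgeR 4.0.16 TMM factors, other totals and filters. The values of 1 gene that the naming rule chose are not reported here.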

Additional observations from a re-analysis of the deposited data

How the results depend on the processing

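No paired analysis was possible because each genotype has 1 library. With 1 library per genotype no replicate could be left out, and the depth limits genes under about 20 UMIs. Values below are in the order of WT and KO-labelled library; the causes of these moves were not tested. Thinning to 3000 UMIs gave shares of 7.94% and 6.497%, 361 genes higher and 56 lower in selected cells, and an AT2 list median of -0.31 in the KO-labelled library. Requiring 4 of the 5 genes gave 4.62% and 3.59%, 372 higher and 66 lower, AT1 median 1.07 in the KO-labelled library, transitional medians 1.46 and 1.79 (0.10 between libraries) and AT2 medians -0.66 and -0.50. Without Scrublet-marked cells, 392 genes were higher, 290 were lower between libraries, and the transitional median was 1.34 in the KO-labelled library. With 0 of the 7 genes of other cells, 118 were higher and 225 lower between libraries. Matching depth gave 35 lower genes and AT2 medians of -0.34 and -0.13. Against AT2 cells with 0 rule genes (76 and 91 cells), 305 were higher and 146 lower, with AT1 medians 0.98 and 1.04, transitional median 1.20 and AT2 median -0.49 (WT for the last 2). TMM moved the all-gene medians from 0.11 and 0.10 to -0.04 and -0.04, and from -0.10 to 0.01 between libraries. It gave 42 lower genes, transitional medians 0.89 and 0.99 (0.046 between libraries) and AT2 medians -0.56 and -0.30 (0.24 between libraries), and turned the 93 higher and 646 lower genes between libraries into 127 and 515. Leaving the 50 most abundant genes out of totals gave AT2 medians of -0.51 and -0.24 (0.20 between libraries). A minimum of 100 UMIs gave 246 higher and 6 lower genes, and 11 higher and 148 lower between libraries; a minimum of 1 UMI gave 68 lower, and 382 and 1430 between libraries. List means were 1.08 (AT1), 1.31 (transitional) and -0.29 (AT2) in the KO-labelled library. Without ciliated-marker barcodes 116 genes were higher and 321 lower between libraries, with a transitional median of 0.89 in the WT library; without AT1-marker barcodes too, 103 and 322, with AT1 medians of 0.66 (KO-labelled) and 0.017 (between libraries), transitional median 0.91 (WT) and AT2 medians -0.35 and -0.13. The signs of the AT1, transitional and AT2 medians over other AT2 cells held in each alternative.

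Named genes at a log2 ratio of 1 or more in size that changed sign are given here; genes with smaller ratios, such as Fn1, Nupr1 and Spock2, also crossed 0 in some alternatives. Over other AT2 cells they were Ccn2 (-0.000805 after thinning, KO-labelled) and Tm4sf1 (WT: -1.07 with 0 genes of other cells, -0.26 without ciliated-marker barcodes and -0.24 without both sets). Against AT2 cells with 0 rule genes, Cav1 was at -0.65 and Mfsd2a at 1.38 (KO-labelled) and Gjb2 at 0.42 (WT). Without both barcode sets Rtkn2 was at -0.053 and Igfbp2 at -0.21 (KO-labelled), and between libraries Rtkn2 was at -0.12 and Spock2 at -1.26. With 4 of the 5 genes, Serpinb8 was at 0.42 between libraries.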

Other observations

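The summed level of Scgb1a1 was lower in the selected cells, while its median per cell was the same. Scgb1a1, the club cell secretory protein gene, stood at 11303 CPM in selected against 20864 CPM in other AT2 cells of the WT library, and at 1839 against 6621 CPM in the KO-labelled library. The median cell held 6 UMIs of it in both kinds of AT2 cell of the WT library and 1 in both of the KO-labelled library. It was detected in 98.8% and 98.8%, and in 64.2% and 65.5%. Dividing cells formed a small and uneven group: at least 5 of 14 cell cycle genes were found in 10 of 690 selected and 11 of 3312 other AT2 cells of the WT library, and in 5 of 837 and 5 of 5099 of the KO-labelled library. Birc5, a protein of cell division, had 63 UMIs in selected cells of the WT library and 1 in those of the KO-labelled library. The summed level of 4 neuroendocrine markers was 20.9 CPM in selected against 6.51 CPM in other AT2 cells of the WT library, and 0.492 against 1.86 CPM in the KO-labelled library.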
